A study of Homo sapiens with 12 samples.

Results

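The aminoacyl-tRNA synthetases are the enzymes that attach each amino acid to its transfer RNA, and 35 of their genes were followed in 2 human acute myeloid leukemia (AML) cell lines treated with the DNA alkylating antibiotic duocarmycin SA (DSA). The members were listed by gene symbol, with earlier results of these data known. All 35 were found among the 60754 genes of each expression table and among the 13422 protein-coding genes tested. Of these, 19 encode synthetases of the cytosol and 16 encode synthetases of mitochondria, and the products of GARS1 and KARS1, counted here with the cytosolic genes, work in both places. The list does not hold an enzyme for every amino acid.

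RNA was sequenced from the AML lines Molm-14 and HL-60 after 36 h with no DSA, with a low dose or with a high dose. Per the paper, Molm-14 came from a patient with AML at relapse and HL-60 from a patient with promyelocytic leukemia. The low and high doses were 11.1 pM and 100 pM for Molm-14 and 112.7 pM and 500 pM for HL-60 cells, and each of the 6 groups had 2 libraries. The controls are labelled as untreated, whereas the methods of the study name a vehicle. Molm-14 cells grew in RPMI with 10% serum and HL-60 cells in IMDM with 20% serum, so line, medium, serum and dose differ together between the lines and cannot be told apart. No source used here states that the 2 libraries of a group came from separate cultures. The p-values below therefore measure the spread between these libraries, which may be technical.

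A synthetase joins its amino acid to ATP and then passes it to the matching tRNA, and the charged tRNA carries it to the ribosome. Several cytosolic synthetases sit in a multisynthetase complex held together by scaffold proteins, whereas mitochondria import a separate set, encoded by other nuclear genes, for the proteins made from mitochondrial DNA. When uncharged tRNA accumulates, the kinase GCN2 slows translation in general but favors that of ATF4, a transcription factor whose known target genes include asparagine synthetase and many cytosolic synthetases. In the text below, 12 cytosolic members that general knowledge lists as ATF4 targets (AARS1, CARS1, EPRS1, GARS1, IARS1, LARS1, MARS1, NARS1, SARS1, TARS1, WARS1 and YARS1) are called ATF4-listed. That list was written with earlier results of these data known, so its direction in these cells is a description.

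The promoters are shown because the ATF4-listed group is defined by a transcription factor. ATF4 with a partner of the C/EBP family is known to bind a composite element, and the 9 letters TGATGNAAN, with N as any base, were searched on both strands from 250 bases before to 50 bases after each RefSeq transcription start (GRCh38.p14). Promoter sequences were found for 30 of the 35 members. The motif was in the promoters of 7 of 10 ATF4-listed members, of 0 of 6 other cytosolic members and of 1 of 14 mitochondrial members, compared with 4.45% of the 27305 genes in the promoter table. A match is a description of the letters and not evidence of binding, and the absence of a match says only that these letters are not in that window. Each line below gives the stretch around the match 5′ to 3′ on the strand of its gene, with the match in capitals. The match reads in the opposite direction to the gene in 6 of the 8 promoters and in the direction of the gene in NARS1 and YARS2.
AARS1 (alanine), chr16:70289676-70289704, minus strand: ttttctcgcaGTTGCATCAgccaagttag
CARS1 (cysteine), chr11:3057408-3057436, minus strand: cggggcggcgGTTGCATCAgattctagga
GARS1 (glycine), chr7:30594834-30594862, plus strand: ttacgcggcgATTTCATCAtgctccgagc
IARS1 (isoleucine), chr9:92293693-92293721, minus strand: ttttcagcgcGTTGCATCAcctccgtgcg
MARS1 (methionine), chr12:57488053-57488081, plus strand: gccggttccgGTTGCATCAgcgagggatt
NARS1 (asparagine), chr18:57621804-57621832, minus strand: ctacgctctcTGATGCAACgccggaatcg
TARS1 (threonine), chr5:33440956-33440984, plus strand: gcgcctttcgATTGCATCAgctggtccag
YARS2 (mitochondrial, tyrosine), chr12:32756076-32756104, minus strand: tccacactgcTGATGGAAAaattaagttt

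The first base of the match lay at -3 in CARS1, -5 in MARS1, -14 in IARS1 and -34 in GARS1, counted from the transcription start, and at 2 in TARS1 and 15 in NARS1. It lay farther upstream in AARS1, at -188, and in YARS2, at -197. Of the ATF4-listed members with a promoter sequence, EPRS1, SARS1 and WARS1 held no match in this window. No promoter sequence was given for LARS1, YARS1, VARS1, AARS2 and VARS2.

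Total expected counts, the RSEM estimates of reads per gene, ran from 21177424 to 63927449 per library. Of the marks looked for in each line, HOXA9 was at 118 and 120 CPM (counts scaled to the TMM-adjusted library size) in Molm-14 controls and at 0.0268 and 0.0848 CPM in HL-60 controls, and HOXA10 and MEIS1 were likewise lower in HL-60 cells. The 3 promyelocyte marks did not all mark HL-60 cells. MPO was at 154 and 144 CPM in Molm-14 and at 15710 and 15650 CPM in HL-60 controls, but AZU1 was at 1499 and 1609 against 202 and 217 CPM, and ELANE at 859 and 884 against 401 and 429 CPM. Markers of other cell types (CD3E, CD8A, EPCAM, COL1A1 and HBB) summed to no more than 3.29 CPM in any library. In both lines, 5 markers of mature granulocytes or monocytes (ITGAM, CD14, CSF3R, FCGR3B and MMP9) summed to more at the high dose, with 79.7 to 80.0 CPM in Molm-14 controls against 159.6 to 166 CPM, and 75.5 to 76.0 CPM in HL-60 controls against 186 to 189 CPM. The share of counts from mitochondrial DNA went from 1.47% and 1.68% to 4.09% and 2.72% in Molm-14 and from 2.22% and 2.47% to 5.46% and 4.64% in HL-60 cells at the high dose. The part of these shifts in the results below was not tested. In bulk RNA, fewer cells of a kind and less RNA per cell cannot be told apart.

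To learn how strongly each enzyme is expressed before treatment, TPM values, transcript abundances that correct for gene length and depth, were compared in the controls. Cytosolic synthetases were the more abundant set. Their group means ran from 14.6 TPM (FARSB) to 497 TPM (MARS1) in Molm-14 and from 29.6 TPM (FARSB) to 346 TPM (FARSA) in HL-60 controls, with medians over genes of 199 and 178 TPM. Mitochondrial synthetases ran from 2.27 TPM (PARS2) to 89.9 TPM (IARS2) in Molm-14 and from 5.48 TPM (PARS2) to 283 TPM (CARS2) in HL-60 controls, with medians of 17.2 and 26.2 TPM. The prolyl enzyme of mitochondria, PARS2, was thus the lowest member in both lines.

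**Figure D1:**
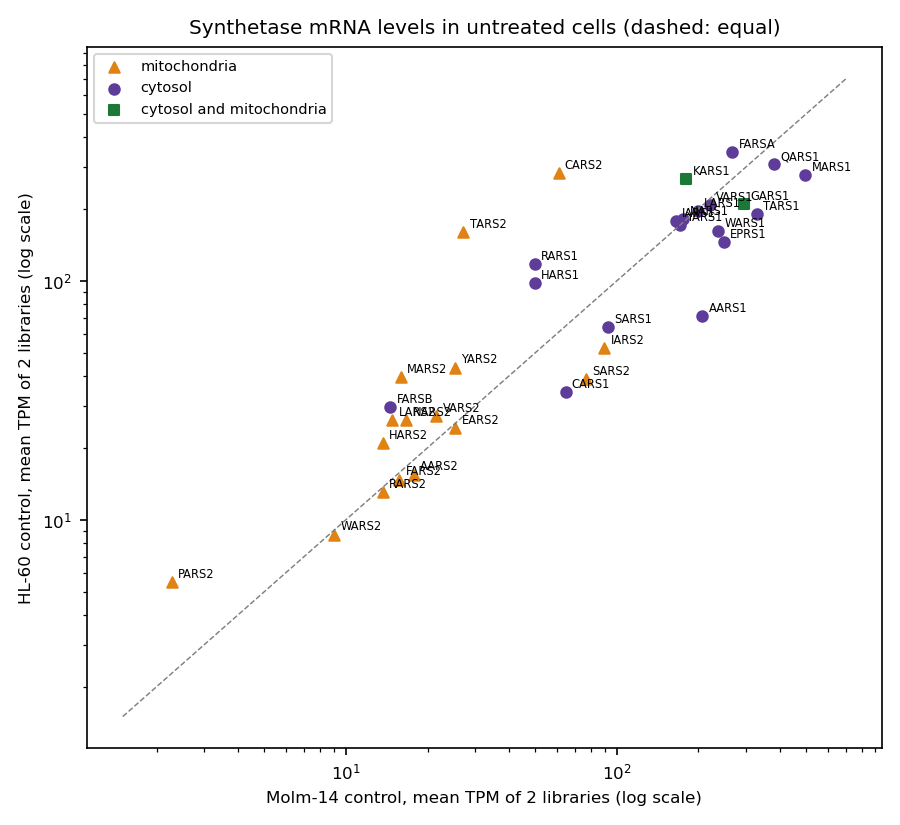
Mean TPM of each synthetase gene in the 2 HL-60 control libraries (vertical axis, log scale) against the 2 Molm-14 control libraries (horizontal axis, log scale), with mitochondrial enzymes as triangles, cytosolic enzymes as circles and the enzymes of both places, GARS1 and KARS1, as squares. TARS2 and CARS2 lie far above the dashed line of equal levels, and AARS1 lies farthest below it among the abundant cytosolic enzymes.

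Untreated lines already differed in these genes. By edgeR's quasi-likelihood test with Benjamini-Hochberg adjustment over all 13422 genes, 15 of 35 members were higher and 15 were lower in HL-60 than in Molm-14 controls at an adjusted p under 0.05, where 43.9% of all genes were higher and 40.1% lower. The members' shares are near those of all genes, so the count itself sets them apart in neither direction. With a fold change over 2 added, 5 members were higher and 3 lower, against 16.5% and 20.6% of all genes. Of the ATF4-listed members, 1 was higher in HL-60 (NARS1) and 9 were lower, with a median difference of -0.61 on the log2 scale against 0.06 over all genes. Of the mitochondrial members, 9 were higher and 4 lower, with a median of 0.35.

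TARS2, which charges mitochondrial threonine tRNA, was at 45.3 and 48.6 CPM in Molm-14 and at 267 and 275 CPM in HL-60 controls. CARS2, the mitochondrial cysteine enzyme, was at 66.2 and 71.9 CPM against 317 and 330 CPM. In both genes the HL-60 libraries lay far above the Molm-14 libraries (log2 difference 2.53 ± 0.04 SE, adjusted p = 2.08e-20, and 2.23 ± 0.04 SE, adjusted p = 1.27e-19). MARS2 and PARS2, for mitochondrial methionine and proline, were also higher in HL-60 cells, by 1.23 ± 0.04 and 1.19 ± 0.11 (SE) on the log2 scale. In the other direction, AARS1, the cytosolic alanine enzyme, was at 588 and 572 CPM in Molm-14 and at 183 and 185 CPM in HL-60 controls (log2 difference -1.66 ± 0.03 SE, adjusted p = 3.98e-19). SARS2, CARS1 and EPRS1 followed, with log2 differences of -1.06 ± 0.04, -1.02 ± 0.04 and -0.87 ± 0.04 (SE). EPRS1 encodes a fused enzyme that charges both glutamate and proline tRNAs.

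To ask what the high dose did, Molm-14 cells at 100 pM DSA were first compared with their controls. Cytosolic synthetase mRNAs fell, and those of mitochondria moved little. Of the 35 members, 23 fell and 1 rose at an adjusted p under 0.05, where 21.9% of all genes fell and 22.9% rose, and the median log2 fold change of the members was -0.19 against 0.00 over all genes. Among cytosolic members 16 of 19 fell with a median of -0.60, and among mitochondrial members 7 of 16 fell and 1 rose with a median of -0.11. All 12 ATF4-listed members fell, from -0.39 (LARS1) to -1.16 (WARS1) on the log2 scale with a median of -0.81. In the other 7 cytosolic members 4 fell and the median was -0.13. The count of 12 held under each of 14 fits, the main settings, each other tool, scaling and filter and each omitted library included, while the count of mitochondrial falls ran from 3 to 9. It was 3 without high-dose replicate 2, 4 without control replicate 1 and 4 with libraries thinned to the smallest total.

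**Figure D2:**
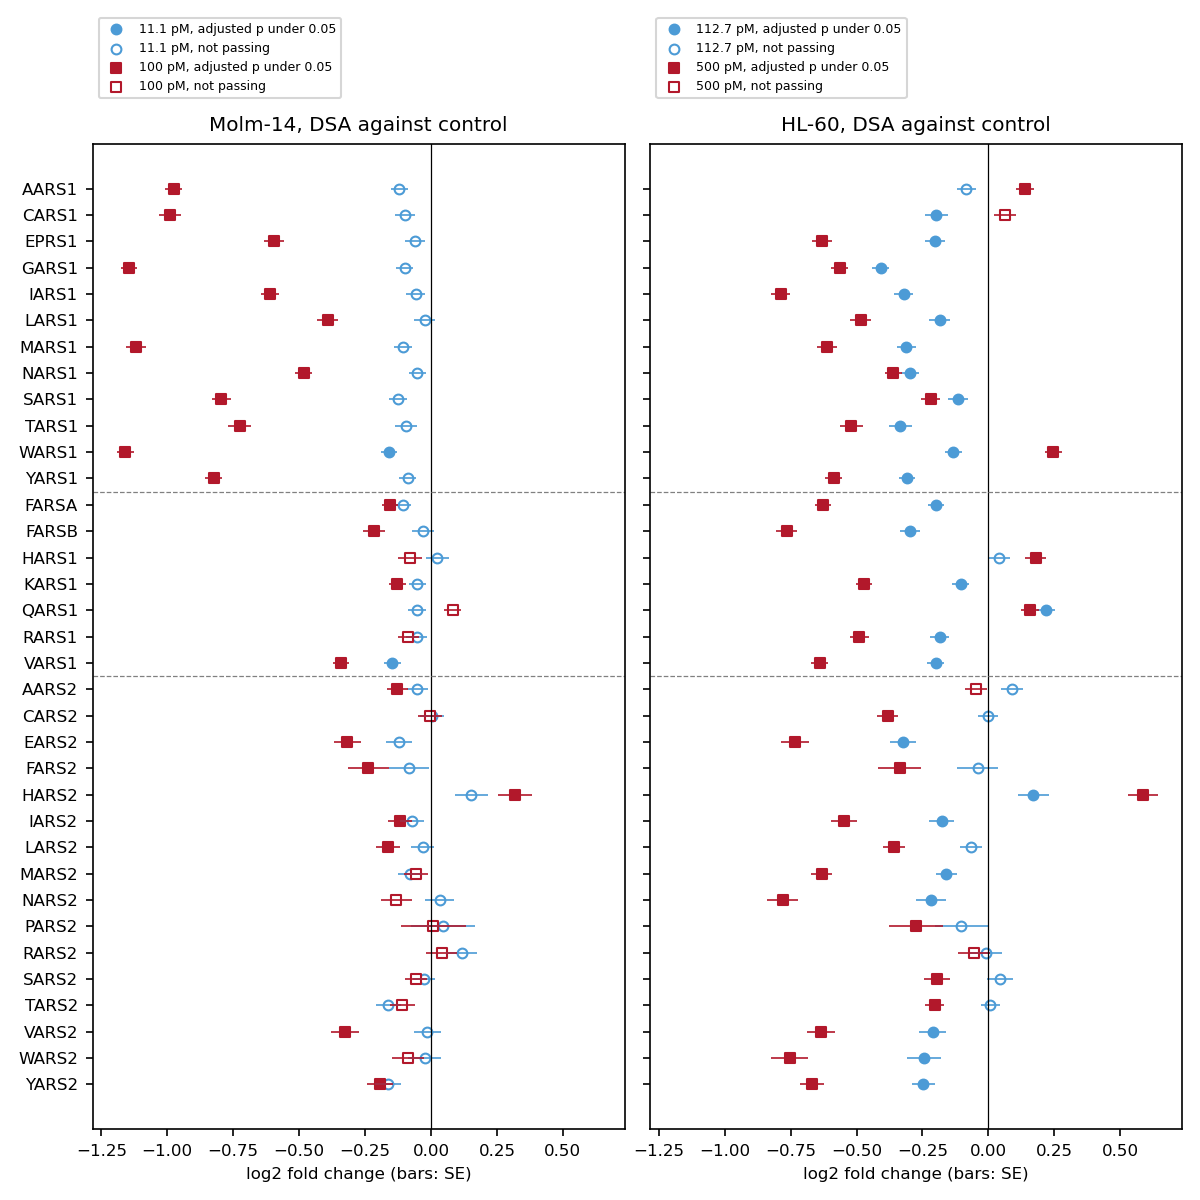
Log2 fold change of each member against the controls of its own line (horizontal axis, with SE as bars) for Molm-14 on the left and HL-60 on the right, with circles for the low and squares for the high dose and filled symbols for an adjusted p under 0.05. Dashed lines separate the 12 ATF4-listed members at the top, 7 other cytosolic members and 16 mitochondrial members, and the red squares of the top group lie lower in Molm-14 than those of the other groups.

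WARS1, the cytosolic tryptophan enzyme that interferon is known to induce, was at 316.1 and 316.5 CPM in Molm-14 controls, at 283.6 and 282.9 CPM at 11.1 pM and at 141.8 and 141.5 CPM at 100 pM. The groups did not overlap, and replicate libraries differed by less than 1 CPM. The fall at 100 pM was the largest of any member (log2 fold change -1.16 ± 0.03 SE, adjusted p = 3.08e-15). GARS1, whose product charges glycine tRNA in cytosol and mitochondria, was at 424 and 407 CPM in the controls and at 187 and 189 CPM at 100 pM (-1.14 ± 0.03 SE, adjusted p = 3.08e-15). MARS1, which charges both initiator and elongator methionine tRNAs, was at 552.7 and 552.5 CPM in the controls and at 255 and 254 CPM (-1.12 ± 0.04 SE, adjusted p = 2.96e-14). These 3 were the members that fell by more than 2-fold, a class that held 0.73% of all genes, and 0 rose by that much against 3.29% of all genes.

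CARS1, the cysteine enzyme, was at 125 and 123 CPM in the controls and at 63.4 and 61.4 CPM at 100 pM (-0.99 ± 0.04 SE). AARS1 was at 588 and 572 CPM and then at 290.3 and 299 CPM (-0.98 ± 0.03 SE). YARS1, the tyrosine enzyme, was at 364 and 354 CPM and then at 201 and 204 CPM (-0.82 ± 0.03 SE). In each of these genes both treated libraries lay far below both controls, with adjusted p-values of 6.28e-13, 5.44e-14 and 2.18e-13. The serine, threonine and asparagine enzymes SARS1, TARS1 and NARS1 fell with log2 fold changes of -0.79, -0.73 and -0.48.

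Within the multisynthetase complex the members did not move alike. MARS1, IARS1, EPRS1, LARS1 and KARS1 fell, with log2 fold changes of -1.12, -0.61, -0.60, -0.39 and -0.13. The glutamine enzyme QARS1, at 398 and 390 CPM in the controls and at 427 and 407 CPM at 100 pM, did not pass the test (log2 fold change 0.08 ± 0.03 SE, adjusted p = 0.0526). The arginine enzyme RARS1 did not pass it either (-0.09 ± 0.04 SE, adjusted p = 0.0913). Of the 12 cytosolic members outside the complex 11 fell, and HARS1 was the exception with -0.08 ± 0.04 SE (adjusted p = 0.153). The 2 genes of the phenylalanine enzyme, which is built from both subunits, fell with log2 fold changes of -0.15 (FARSA) and -0.22 (FARSB).

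Among the mitochondrial members, VARS2, EARS2, FARS2, YARS2, LARS2, AARS2 and IARS2 fell in Molm-14 cells, with log2 fold changes from -0.12 to -0.33. HARS2, the histidine enzyme of mitochondria, was the member that rose. Its libraries were at 26.7 and 27.2 CPM in the controls, 31.8 and 28.3 CPM at 11.1 pM and 34.2 and 33.0 CPM at 100 pM, so the high-dose libraries lay above both controls (0.32 ± 0.06 SE, adjusted p = 0.000395). HARS1 and HARS2 lie head to head on opposite strands of chromosome 5 and share 108 exonic bases in GENCODE release 44. No source used here says whether strand entered the counting. HARS2 also shares 152 exonic bases, 4.09% of its own, with ZMAT2 on the same strand. ZMAT2 held 2901 to 9842 counts per library, and the part of these overlaps in the values of HARS2 was not tested.

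For 15 amino acids the list holds a single cytosolic gene and a mitochondrial gene, with EPRS1 serving both glutamate and proline. In Molm-14 cells at 100 pM the cytosolic gene had the lower log2 fold change in 15 of 15 such pairs. Phenylalanine, with 2 cytosolic genes, is not among them and went the other way, at -0.15 for FARSA and -0.22 for FARSB against -0.24 for FARS2. The gap was wide for tryptophan (-1.16 for WARS1 and -0.09 for WARS2), methionine (-1.12 for MARS1 and -0.06 for MARS2) and cysteine (-0.99 for CARS1 and 0.00 for CARS2). It was narrow for valine, at -0.34 for VARS1 and -0.33 for VARS2. In HL-60 cells at 500 pM the cytosolic gene had the lower value in 8 of 15 pairs. The order within pairs is a description and was not tested.

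At the low dose of 11.1 pM, 2 members fell in Molm-14 cells and 0 rose, where 0.238% of all genes fell and 0.969% rose. They were WARS1, with the values given above (-0.16 ± 0.03 SE, adjusted p = 0.0131), and the valine enzyme VARS1, at 519 and 530 CPM in the controls and at 481 and 467 CPM (-0.15 ± 0.03 SE, adjusted p = 0.0265). Treated and control libraries did not overlap in either gene. Both calls were lost when any 1 of the 4 Molm-14 libraries compared was left out, where the lone library of a group was assumed to vary like the others. Neither fell by more than 2-fold, as 0.0149% of all genes did (0.00745% rose by that much). The median of all 35 members was -0.06 and that of all genes was -0.01 on the log2 scale. From the low to the high dose 18 members fell and 2 rose, where 18.5% of all genes fell and 19.6% rose, and the 18 included all 12 ATF4-listed members. Falls over 2-fold in this step numbered 2, against 0.618% of all genes, and rises 0, against 2.26%.

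In HL-60 cells at 500 pM, synthetases of both compartments fell. Of the 35 members 27 fell and 5 rose, where 37.8% of all genes fell and 35.8% rose, and the median log2 fold change was -0.48 against 0.00 over all genes. Cytosolic members numbered 14 lower and 4 higher with a median of -0.49, and mitochondrial members 13 lower and 1 higher with a median of -0.37. No member of either kind changed by more than 2-fold, whereas 2.05% of all genes fell and 16.5% rose by that much. ATF4-listed members were split, with 9 lower, AARS1 and WARS1 higher and CARS1 not passing the test (0.06 ± 0.04 SE, adjusted p = 0.192). When libraries were scaled by total counts alone, the median of all genes in this comparison moved to 0.18, and the members then numbered 22 lower and 7 higher.

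IARS1, the isoleucine enzyme, had the largest fall among the members. Its libraries were at 478 and 465 CPM in HL-60 controls, 378 and 376 CPM at 112.7 pM and 284 and 263 CPM at 500 pM, without overlap between groups (-0.79 ± 0.04 SE at 500 pM, adjusted p = 4.52e-13). FARSB, 1 of the 2 genes of the phenylalanine enzyme, went from 184 and 176 CPM to 104 and 107 CPM (-0.77 ± 0.04 SE, adjusted p = 2.56e-12). Its partner FARSA went from 418 and 429 CPM to 274 CPM in both libraries (-0.63 ± 0.03 SE). The 2 subunit genes thus fell together in HL-60 cells, with all treated libraries below all controls. The lysine enzyme KARS1 went from 412 and 409 CPM to 294 and 298 CPM (-0.47 ± 0.03 SE).

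Mitochondrial members were among the strongest falls. NARS2, for asparagine, was at 42.5 and 38.7 CPM in the controls and at 24.0 and 23.3 CPM at 500 pM (-0.78 ± 0.06 SE, adjusted p = 7.29e-10). WARS2, for tryptophan, was at 17.7 and 17.6 CPM and then at 10.1 and 10.8 CPM (-0.75 ± 0.07 SE, adjusted p = 1.10e-08). EARS2, for glutamate, was at 51.6 and 49.5 CPM and then at 28.8 and 31.6 CPM (-0.73 ± 0.05 SE, adjusted p = 3.45e-10). Both treated libraries of each gene lay below both controls. YARS2, for tyrosine, went from 56.6 and 56.3 CPM to 35.9 and 35.2 CPM (-0.67 ± 0.05 SE). The remaining members that fell ranged from -0.19 (SARS2) to -0.64 (VARS1), and AARS2 and RARS2 did not pass the test. The call of PARS2 was lost with RLE factors, with total counts, with DESeq2 and when either treated library or control replicate 1 was left out.

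**Figure D3:**
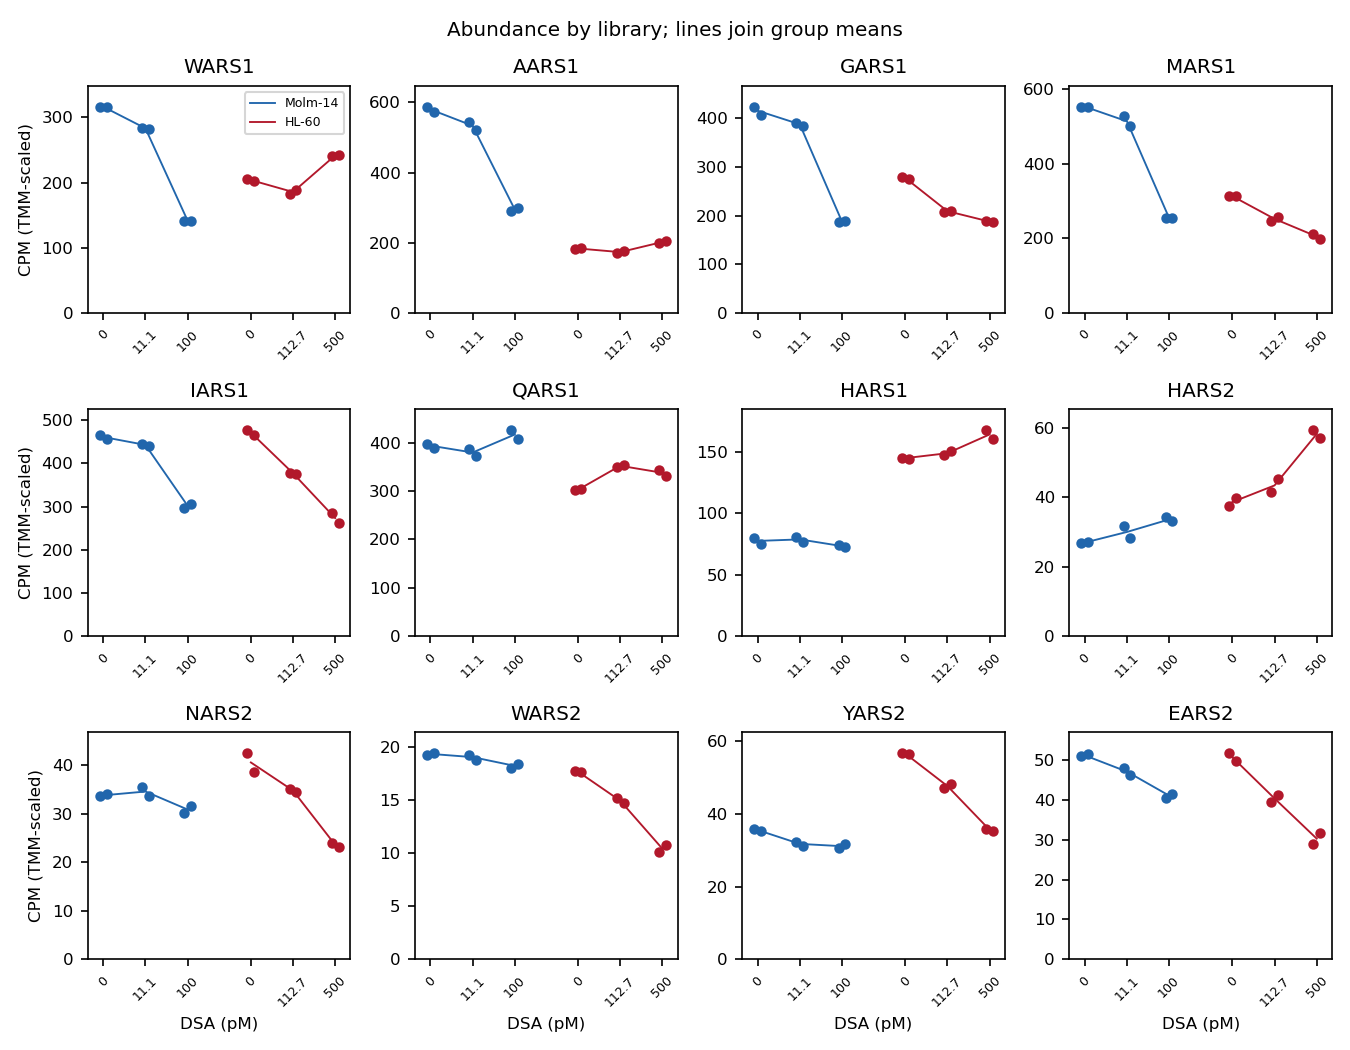
CPM (TMM-scaled) of 12 members in each library, with DSA dose in pM on the horizontal axis, Molm-14 in blue and HL-60 in red, points for libraries and lines joining group means. WARS1 and AARS1 are lowest at 100 pM in Molm-14 cells, whereas among the HL-60 libraries they are highest at 500 pM, and NARS2, WARS2, YARS2 and EARS2 show larger falls in HL-60 than in Molm-14 cells.

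HARS2 rose most in HL-60 cells, as the plot of CPM by library shows. Its libraries were at 37.6 and 39.7 CPM in the controls, 41.6 and 45.2 CPM at 112.7 pM and 59.4 and 57.0 CPM at 500 pM, and the 3 groups did not overlap (0.59 ± 0.06 SE at 500 pM, adjusted p = 2.11e-08). Its head-to-head neighbor HARS1, the cytosolic histidine enzyme, went from 145 CPM in both controls to 168 and 160.5 CPM (0.18 ± 0.04 SE, adjusted p = 0.000534). WARS1 went from 206 and 202 CPM in the controls to 182 and 189 CPM at 112.7 pM and to 240.5 and 243 CPM at 500 pM. It therefore fell at the low dose and rose at the high dose, with no overlap with the controls in either case (-0.13 ± 0.03 SE, adjusted p = 0.00193, and 0.25 ± 0.03 SE, adjusted p = 1.13e-06), although the fall lost its call when libraries were scaled by total counts alone. QARS1 went from 302 and 304 CPM to 350 and 355 CPM at the low and 344 and 331 CPM at the high dose (0.16 ± 0.03 SE, adjusted p = 0.000352). AARS1 went from 183 and 185 CPM to 199 and 205 CPM at the high dose, a small rise (0.14 ± 0.04 SE, adjusted p = 0.00144).

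At 112.7 pM, 23 members fell and 2 rose in HL-60 cells, where 27.4% of all genes fell and 24.2% rose. ATF4-listed members fell in 11 of 12 cases with a median of -0.25, the exception being AARS1 (-0.08 ± 0.04 SE, adjusted p = 0.0541). Of these 11, SARS1 lost its call with RLE factors, with total counts alone and with DESeq2, and WARS1 with total counts alone. Of 16 mitochondrial members 7 fell, with a median of -0.08. Over 14 fits the mitochondrial falls numbered 4 to 7, with 4 under DESeq2, where MARS2, NARS2 and WARS2 lost their calls, and the median ran from -0.13 to -0.01. GARS1, which had the largest fall, was at 280 and 275 CPM in the controls and at 208 and 210 CPM (-0.41 ± 0.03 SE, adjusted p = 9.17e-09). TARS1, EARS2, IARS1, MARS1 and YARS1 followed, with log2 fold changes of -0.33, -0.32, -0.32, -0.31 and -0.31. QARS1 and HARS2 rose (0.22 ± 0.03 and 0.17 ± 0.06 SE), and the call of HARS2 was lost when control replicate 1 or low-dose replicate 2 was left out. From 112.7 to 500 pM, 26 members fell and 5 rose, where 26.8% of all genes fell and 25.9% rose. No member passed a fold change over 2 at 112.7 pM, where 0.291% of all genes fell and 5.57% rose by that much, or from 112.7 to 500 pM, where 0.723% fell and 8.15% rose. In the step to 500 pM 13 of 16 mitochondrial members fell, and WARS1, CARS1 and AARS1 rose by 0.38, 0.26 and 0.22 on the log2 scale.

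The sum of TPM over each set shows the size of these shifts in transcript share. Cytosolic synthetases summed to 3843 ± 13 TPM (SD, n = 2) in Molm-14 controls, 3616 ± 78 TPM at 11.1 pM and 2549 ± 42 TPM at 100 pM, or 66.3% of the control. In HL-60 cells they summed to 3251 ± 82, 2856 ± 20 and 2664 ± 41 TPM (SD, n = 2), and the high dose stood at 81.9% of the control. The ATF4-listed sum stood at 55.1% of its control in Molm-14 and at 80.4% in HL-60 cells at the high dose. Mitochondrial synthetases stood at 91.7% of their control in Molm-14 and at 81.4% in HL-60 cells. TPM carries no TMM scaling, unlike the CPM and fold changes above. With libraries scaled by total counts alone, the median log2 fold change of all genes at the high dose was 0.18 in HL-60 and 0.04 in Molm-14 cells. The percentages are therefore not on the scale of the fold changes. The part of this scaling in the gap between the lines was not tested. With 2 libraries a group, an exact test on these sums could not pass 0.05, and none was made.

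**Figure D4:**
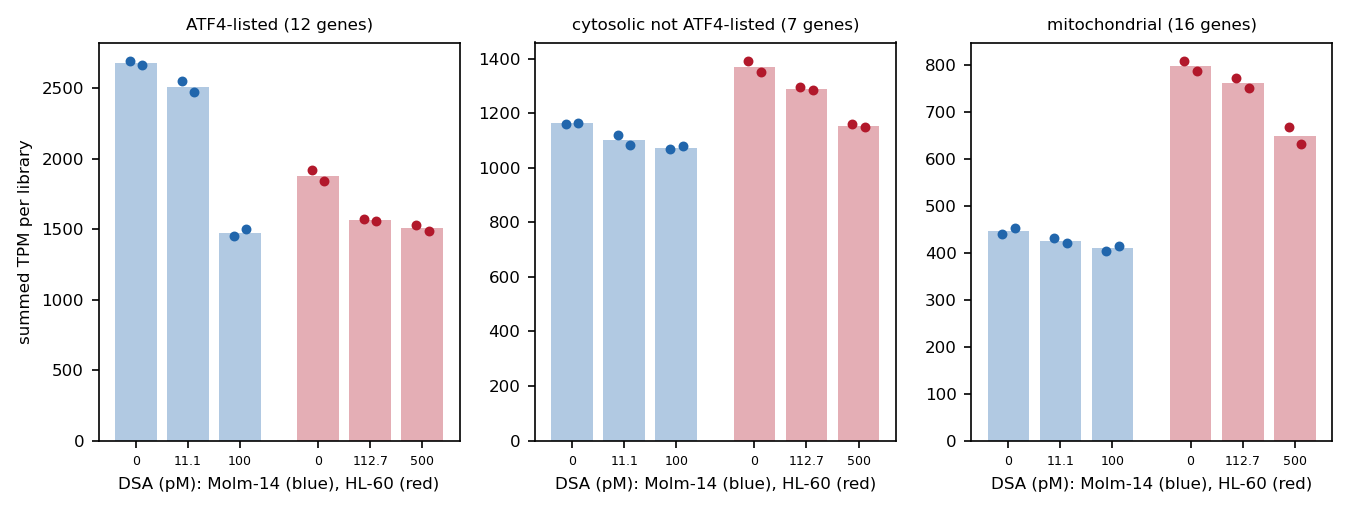
Summed TPM of the 12 ATF4-listed, 7 other cytosolic and 16 mitochondrial members (vertical axes from 0), with bars for group means and points for the 2 libraries, against DSA dose in pM for Molm-14 (blue) and HL-60 (red). The ATF4-listed sum at 100 pM in Molm-14 cells, 1476 TPM, lies below its control of 2680 TPM. The mitochondrial sum shows its larger drop in HL-60 cells. TPM carries no TMM scaling.

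Whether the lines responded differently was tested directly as the log2 change in HL-60 minus the log2 change in Molm-14 cells. At the high doses, 100 and 500 pM, 11 members had a higher and 15 a lower change in HL-60 cells, where 25.1% of all genes were higher and 30.3% lower. ATF4-listed members accounted for 9 of the 11, and their median difference was 0.37, against -0.02 over all genes. WARS1 differed most (1.41 ± 0.05 SE, adjusted p = 1.98e-14), followed by AARS1 (1.11 ± 0.05 SE, adjusted p = 9.84e-13) and CARS1 (1.05 ± 0.06 SE, adjusted p = 3.79e-11). GARS1, SARS1 and MARS1 differed by 0.58, 0.58 and 0.51. Among mitochondrial members 9 had the lower change in HL-60 cells and 1, HARS2, the higher, with a median of -0.30. Differences over 2-fold numbered 3 higher and 0 lower, against 10.1% and 2.21% of all genes. Scaling by total counts moved the median of all genes to 0.13 in this comparison.

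By direction in each line at the high doses, 19 members fell in both and HARS2 rose in both. AARS1 and WARS1 fell in Molm-14 and rose in HL-60 cells, CARS1 and AARS2 fell in Molm-14 cells and did not pass the test in HL-60 cells, and 8 members fell in HL-60 cells without passing the test in Molm-14 cells. QARS1 and HARS1 rose in HL-60 cells and did not pass in Molm-14 cells. RARS2 passed in neither. Over all genes 21.9% fell and 22.9% rose in Molm-14 cells, and 37.8% fell and 35.8% rose in HL-60 cells. The share of all genes in each joint class was not computed, so these counts only describe the members.

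Since the doses differ, the nearest pair, 112.7 pM in HL-60 and 100 pM in Molm-14 cells, was also compared. This pair is near in concentration and not in inhibition. In the paper's viability assay, 112.7 pM gave inhibition midway to its maximum in HL-60 cells. That assay was read after a longer exposure than the 36 h of the RNA. For Molm-14 cells the midway concentration was about their low dose, so 100 pM lies well above it. The part of this gap in the result was not tested. At these doses 15 members had a higher and 0 a lower change in HL-60 cells, where 16.7% of all genes were higher and 21% lower. Over 2-fold, 1 member was higher and 0 lower, against 2.66% and 1.18% of all genes. All 12 ATF4-listed members were among the 15, from 0.19 (NARS1) to 1.03 (WARS1) with a median of 0.60. Of the mitochondrial members AARS2 alone passed the test (0.22 ± 0.06 SE, adjusted p = 0.00669), and their median was -0.03. No member passed in the lower direction under any of 18 fits, whereas the number of ATF4-listed members passing in the higher direction was 11 or 12. The controls of both lines and the Molm-14 libraries at 100 pM enter both this comparison and the one at the high doses. The 2 comparisons are therefore not independent of each other.

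Other genes that act with the synthetases were read from lists written with earlier results known. Beside their counts stand 21.9% of all genes that fell and 22.9% that rose in Molm-14 cells at 100 pM, and 37.8% and 35.8% in HL-60 cells at 500 pM. Of 7 genes for the scaffold of the synthetase complex and elongation factor 1, 3 fell and 1 rose in Molm-14 and 6 fell in HL-60 cells at the high dose. The scaffold gene AIMP1 was at 78.7 and 77.0 CPM in Molm-14 controls against 74.4 and 79.7 CPM (-0.02 ± 0.04 SE, adjusted p = 0.802), and at 97.0 and 98.8 CPM in HL-60 controls against 68.9 and 70.9 CPM (-0.49 ± 0.04 SE). EEF1E1, another protein of the complex, fell in both lines (-0.45 and -0.80). XPOT, which exports tRNA from the nucleus, also did (-0.76 and -0.89). In the list for tRNA maturation and export to which it belongs, 4 of 13 fell and 1 rose in Molm-14 and 10 fell and 2 rose in HL-60 cells. Of 8 mitochondrial tRNA charging partners and elongation factors 4 fell in Molm-14 cells, against 6 in HL-60 cells. Of 7 genes for editing of mischarged tRNA and selenocysteine, 3 fell and 1 rose in Molm-14 and 4 fell in HL-60 cells.

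Of 22 other genes of the ATF4 arm, 16 fell and 3 rose in Molm-14 cells at 100 pM with a median of -0.79, where 21.9% of all genes fell and 22.9% rose. At 500 pM in HL-60 cells 11 fell and 9 rose with a median of -0.10, where 37.8% of all genes fell and 35.8% rose. ATF4 mRNA itself was at 867 and 854 CPM in Molm-14 controls and 568 and 557 CPM at 100 pM (-0.61 ± 0.04 SE), and at 695 and 735 CPM in HL-60 controls and 448 and 440.1 CPM at 500 pM (-0.69 ± 0.04 SE). The fall of ATF4 mRNA was thus seen in both lines, and its difference between them did not pass the test (-0.07 ± 0.06 SE, adjusted p = 0.275). ASNS, the asparagine synthetase, went from 208 and 205 CPM to 37.0 and 38.9 CPM in Molm-14 cells (-2.44 ± 0.04 SE) and from 69.4 and 69.6 CPM to 41.3 and 42.1 CPM in HL-60 cells (-0.73 ± 0.04 SE). CHAC1, TRIB3 and DDIT3, stress-response targets of the pathway, fell in Molm-14 cells, with log2 fold changes of -2.72, -1.51 and -0.33. In HL-60 cells these 3 rose, with values of 0.80, 0.48 and 1.40. Not all stress genes of the pathway took this course. Mean ATF3 went from 36.6 to 43.5 CPM and mean PPP1R15A from 128 to 148 CPM in Molm-14 cells at 100 pM. In HL-60 cells at 500 pM they went from 4.70 to 20.2 CPM and from 95.6 to 123 CPM. DDIT3 lies on the opposite strand to MARS1 and shares 355 exonic bases with it, and the part of this overlap in their values was not tested.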

How the data were processed

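Total RNA of 12 cultures or culture samples of 2 cell lines was sequenced, and the values used are those the authors deposited. Per the labels and the methods of the study, the authors trimmed reads with Trim Galore (0.60), mapped them to hg38 with STAR (2.7) and used RSEM (1.31) with the annotation of GENCODE release 31 for expected counts by gene. The deposited expected counts carry no scaling or filter. The deposited TPM values, the counts divided by effective length and scaled to a fixed total, were used for levels only, and the deposited effective lengths as a description. No source used here gives the strand setting of the counting.

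Identifiers were matched to GENCODE release 44 (60261 of 60754), and protein-coding genes of level 1 or 2 (19868) were kept, as in the study. Expected counts were rounded. edgeR 4.0.16 in R 4.3.3 kept 13422 genes with filterByExpr, scaled libraries by TMM, fitted 1 mean per group over all 12 libraries and tested contrasts by quasi-likelihood, with Benjamini-Hochberg adjustment over all genes tested. The SE is the size of the log2 fold change divided by the square root of F. The scripts were tested on simulated data. The depth of each library, at least 21177424 counts, limits PARS2 and other low members most, and no library was left out.

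Alternatives were DESeq2 1.42.0, limma-voom (limma 3.58.1, the tool of the study), RLE factors, total counts, no filter, all gene types, only the groups compared, libraries thinned to the smallest total, a fold threshold, the replicate number as a block and each library left out. Counts of members by set over these fits were added after seeing the data. Values in each library are given for up to 6 members with the largest fall and up to 4 with the largest rise in each comparison of a dose with its control. The same holds for members that differ most between the lines, for FARSA, FARSB, HARS1, HARS2, GARS1, KARS1 and WARS1, and for up to 4 genes of each list. Members, lists and this rule were chosen with earlier results of these data known. A marker gene of another cell type is not reported here and was left out of its list's sum.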

Additional observations from a re-analysis of the deposited data

Results flagged for a closer look

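Effects of DSA that differed between the lines are collected here. Each value is the log2 change at 500 pM in HL-60 minus that at 100 pM in Molm-14 cells, and each passed edgeR's quasi-likelihood test of the difference itself at an adjusted p under 0.05 over all genes. Dose, medium and serum differ with the line, and their part was not tested.

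Higher changes in HL-60 cells were found for WARS1 (1.41), AARS1 (1.11), CARS1 (1.05), GARS1 (0.58), SARS1 (0.58), MARS1 (0.51), HARS2 (0.27), HARS1 (0.26), YARS1 (0.24), TARS1 (0.21) and NARS1 (0.12). The call of NARS1 was lost without Molm-14 control replicate 1 or 2, Molm-14 high-dose replicate 1, HL-60 control replicate 2 or HL-60 high-dose replicate 2, and also with no filter and with all gene types. That of TARS1 was lost without Molm-14 control replicate 1, HL-60 control replicate 2 or HL-60 high-dose replicate 1.

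Lower changes in HL-60 cells were found among cytosolic members for FARSB (-0.55), FARSA (-0.47), RARS1 (-0.40), KARS1 (-0.34), VARS1 (-0.30) and IARS1 (-0.18). Among mitochondrial members they were found for WARS2 (-0.67), NARS2 (-0.65), MARS2 (-0.57), YARS2 (-0.48), IARS2 (-0.43), EARS2 (-0.42), CARS2 (-0.38), VARS2 (-0.31) and LARS2 (-0.20). The calls of IARS1 and LARS2 were lost with RLE factors and with total counts alone, and that of VARS2 with total counts alone. LARS2 also lost its call with DESeq2, with thinned libraries and without Molm-14 high-dose replicate 1 or HL-60 high-dose replicate 2.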

How the results depend on the processing

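Calls of named members were repeated 809 times in the comparisons of a dose with its control and the line difference at the high doses. Of these repeats, 775 kept direction and call, 34 kept direction but lost the call and 0 reversed. The steps from low to high dose were not among them. A fold change over 2 left 0 rises and 3 falls among the members in Molm-14 at the high dose, 0 falls at the low dose, and 0 rises and 2 falls from low to high. In HL-60 it left 0 rises and 0 falls at the high dose, at the low dose and from low to high. Between the controls it left 5 higher and 3 lower, and of the line differences 3 higher and 0 lower at the high doses and 1 higher at the nearest doses.

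Rises in Molm-14 at the high dose numbered 2, with QARS1 added, under total counts alone, limma-voom and only the groups compared, and 1 to 2 with a library left out. Falls at the low dose numbered 4 with DESeq2, 6 without the filter, 1 with thinned libraries and 0 with any library left out. Rises from low to high numbered 1 with DESeq2 and with all gene types, and 0 to 2 with a library left out. HL-60 rises at the low dose numbered 4 with total counts alone and 1 to 2 with a library left out. From low to high in HL-60, SARS1 changed sign with total counts alone and lost its call. The causes were not tested.

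Replicate numbers did not pair the libraries, since deviations of same-numbered libraries correlated between -0.07 and 0.07. With the replicate block, rises in Molm-14 at the high dose numbered 2, and no other count of members moved by over 1.5 times.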

Other observations

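The effective length that RSEM gave CARS1, an average over its transcripts weighted by abundance, varied between libraries of the same group. It was 1788 and 1467 bases at 11.1 pM in Molm-14 cells and 1928 and 1440 bases at 112.7 pM in HL-60 cells, against 2060 and 2026 bases in Molm-14 controls. The TPM of CARS1 at 11.1 pM, 68.8 and 83.7, therefore lay above the controls at 64.2 and 65.1, whereas its CPM, 117 and 115, lay below the controls at 125 and 123. WARS2 varied from 1663 to 2613 bases over the 12 libraries. For GARS1 in HL-60 cells the effective length was 1513 and 1455 bases in the controls and 1370 and 1314 bases at 500 pM, and it was 1488 and 1516 bases in Molm-14 controls and 1515 and 1625 bases at 100 pM.

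Exons of MARS1 overlap those of ARHGAP9 on the opposite strand by 519 bases, and exons of HARS1 overlap those of WDR55 by 1090 bases, 7.70% of the exonic bases of HARS1. SARS2 shares 48.2% of its exonic bases with a read-through gene on its own strand that held 0 to 4 counts per library.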
